A study of Mus musculus with 15 samples.

Results

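Fibroblasts carrying the surface receptor PDGFRa were compared between an obstructed kidney and a kidney early after a toxic injury. The comparison set the 3 arrays of kidneys at day 14 of unilateral ureteral obstruction (UUO; arrays 10, 11 and 12) against the 3 arrays of kidneys at day 3 after folic acid (arrays 1, 2 and 3). These are 6 of the 15 arrays of the series, chosen by their labels, and all 13523 genes that passed a filter on dim values were tested. All mice were adult C57BL/6, and the labels name no allele, transgene or sex. The other 9 arrays came from folic acid day 7, folic acid day 14 and uninjured kidney, with 3 arrays each. Injury model and day both differ between UUO day 14 and folic acid day 3, so model and day cannot be told apart here. The labels do not say how PDGFRa was detected in the sort, nor whether each array of a group stands for its own animal. The p-values thus cover only how much these samples vary, which could be technical.

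Kidney fibroblasts are interstitial cells that lie between the tubules and, after injury, turn into myofibroblasts that contract and lay down collagen. Tying off a ureter keeps the injury going and produces progressive scarring, whereas a dose of folic acid damages the tubule epithelium once and starts an acute injury that can repair. PDGFRa is a receptor tyrosine kinase for platelet-derived growth factors and is commonly used to pick out fibroblasts in the kidney.

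All levels are log2 intensities, so a difference of 1 is a doubling, and differences are UUO minus folic acid day 3. The medians of the 6 arrays lay between 4.93 and 4.99 and their upper quartiles between 6.19 and 6.27. Across genes, which are not independent replicates, UUO arrays correlated at 0.949 to 0.951 with one another, folic acid day 3 arrays at 0.954 to 0.958, and arrays of the 2 groups at 0.922 to 0.938. Pdgfra itself, the receptor gene behind the sort, stood at 6.54, 5.71 and 5.71 in UUO, against 6.76, 6.11 and 7.20 at folic acid day 3. Those ranges overlapped, near or above the upper quartile of the arrays at folic acid day 3 and around it or below in UUO, and the difference of -0.70 (SE 0.59) did not pass the test. The mean of 14 resident kidney fibroblast markers ran from 8.57 to 8.67 in UUO and from 8.23 to 8.57 at folic acid day 3, well above the array medians in both. By sign, however, 9 of these markers were lower in UUO and 5 higher (median -0.22).

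The sorted cells of the obstructed kidney carried more RNA of a set of matrix, signalling and surface genes, led by the gap junction gene Gja1, the proteoglycan gene Lum and the protease gene Fap. The sorted cells of the folic acid day 3 kidney carried more RNA of the membrane protein gene Lrrn1, the retinoid enzyme gene Aldh1a1, the prostaglandin-degrading enzyme gene Hpgd, several drug-metabolising enzymes, and a few genes of mitosis and Notch signalling. Proximal tubule markers moved the same way as the enzymes, with a mean of 5.44 to 5.93 in UUO and 6.58 to 6.69 at folic acid day 3. The main myofibroblast genes Acta2, Col1a1 and Col3a1 were bright in both groups and not called different. In limma, with Benjamini-Hochberg adjustment over all genes tested, 71 genes were higher and 82 lower in UUO at an adjusted p under 0.05, 153 in all or 1.13% of those tested (0.525% higher and 0.606% lower). At least 4-fold differences numbered 37 higher and 33 lower genes, and at least 8-fold ones 12 and 10. The 3 UUO arrays did not overlap with the 3 folic acid day 3 arrays for any of the 153 genes, against a background of 2645 genes (19.6%; 7.57% higher and 12.0% lower in UUO) over all genes tested. The call of 67 of the 153 genes held when any 1 of the 15 arrays was left out.

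**Figure D1:**
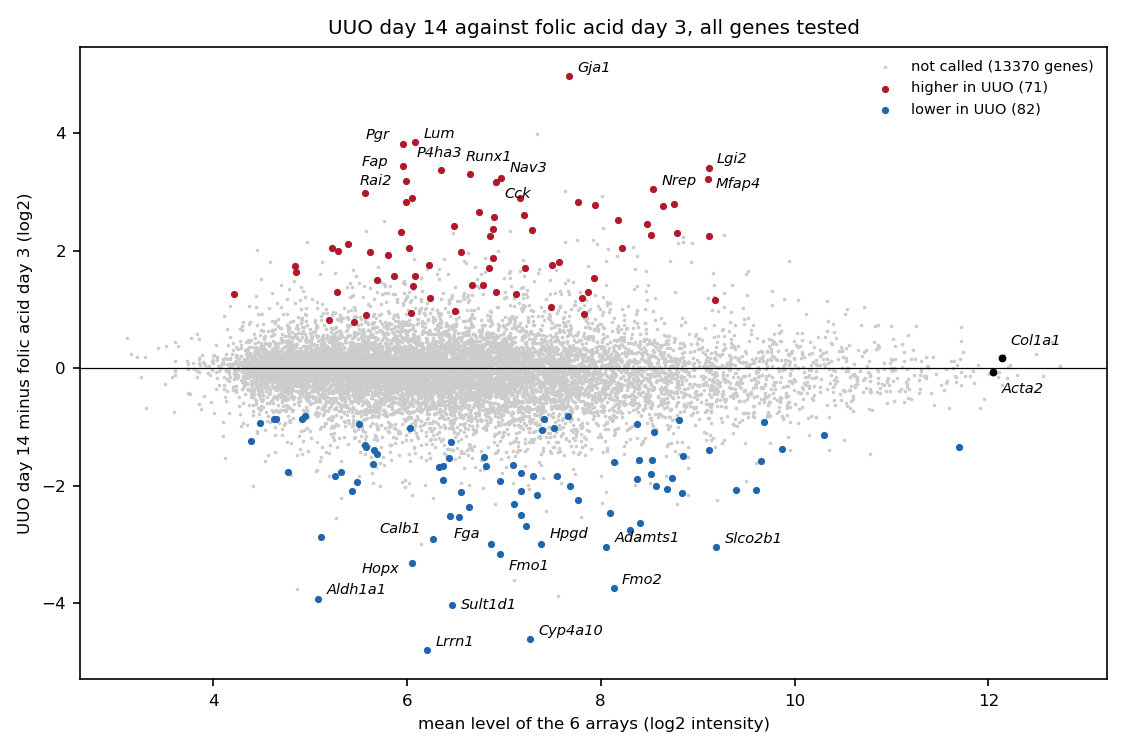
Each point is 1 of the 13523 genes tested, with the mean level of the 6 arrays (log2 intensity) on the horizontal axis and UUO day 14 minus folic acid day 3 (log2) on the vertical axis. The 71 genes called higher in UUO are red and the 82 called lower are blue, the 12 highest and 12 lowest are named, and Acta2 and Col1a1 (black) lie near 0 at the bright end.

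The highest difference was that of Gja1, which encodes connexin 43, a channel protein that joins the cytoplasm of neighbouring cells. It stood at 9.90, 10.30 and 10.29 in UUO, against 4.53, 6.32 and 4.73 at folic acid day 3, a 31.4-fold difference (log2 4.97, SE 0.46, adjusted p = 0.000293). Every UUO array lay far above every folic acid day 3 array, of which array 2 was the highest. Another 3 probe sets of Gja1 were also called, with log2 differences of 6.32, 6.03 and 5.58, and the remaining one was not (0.48, adjusted p = 0.448). Pgr, the progesterone receptor, stood at 7.22, 8.66 and 7.74 in UUO, against 3.95, 3.88 and 4.34 at folic acid day 3 (log2 3.82, SE 0.30, adjusted p = 0.000129). The folic acid day 3 values lay below the array medians and the UUO values above the upper quartile. Lum, which encodes lumican, a proteoglycan that coats collagen fibrils, stood at 8.52, 7.75 and 7.76 in UUO, against 4.68, 3.93 and 3.87 at folic acid day 3 (log2 3.85, SE 0.67, adjusted p = 0.0139). Fap, fibroblast activation protein, a serine protease of activated fibroblasts, stood at 7.63, 7.03 and 8.39 in UUO, against 4.15, 4.62 and 3.95 at folic acid day 3 (log2 3.44, SE 0.53, adjusted p = 0.00751). Both genes were dim in every folic acid day 3 array and bright in every UUO array.

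Of the brighter genes, Lgi2, a secreted leucine-rich protein, stood at 10.70, 10.93 and 10.83 in UUO, against 7.78, 6.87 and 7.58 at folic acid day 3 (log2 3.41, SE 0.44, adjusted p = 0.00257). Mfap4, a microfibril-associated glycoprotein of elastic fibres, stood at 10.64, 10.61 and 10.87 in UUO, against 8.23, 7.37 and 6.89 at folic acid day 3 (log2 3.21, SE 0.42, adjusted p = 0.00257). Nrep, also known as P311, a small intracellular protein described in wound fibroblasts, stood at 10.46, 10.05 and 9.68 in UUO, against 7.24, 6.91 and 6.91 at folic acid day 3 (log2 3.05, SE 0.43). In these 3 genes the UUO arrays lay within about a log2 unit of one another and well clear of the folic acid day 3 arrays. P4ha3, a catalytic subunit of the prolyl hydroxylase that stabilises collagen, stood at 8.07, 7.56 and 8.50 in UUO, against 5.25, 4.49 and 4.26 at folic acid day 3 (log2 3.38, SE 0.47). Cck, which encodes the peptide hormone cholecystokinin, stood at 7.63, 9.17 and 8.71 in UUO, against 5.59, 5.09 and 5.31 at folic acid day 3 (log2 3.17, SE 0.52, adjusted p = 0.00919).

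The remaining 3 of the 12 highest were the transcription factor Runx1 (log2 3.30), Nav3, a microtubule-associated protein named for axon guidance (log2 3.23), and Rai2, a gene named for its induction by retinoic acid (log2 3.19). Runx1 stood at 9.31, 7.00 and 8.59 in UUO, against 4.47, 5.44 and 5.09 at folic acid day 3, with array 11 well below the other UUO arrays. Of its other 5 probe sets 1 was called (1.92, adjusted p = 0.0153), and those not called ran from -0.03 to 1.77. For the 12 highest genes the UUO mean was the highest of the 5 group means of the series. The calls of 4 of these genes ended when 1 array was left out. For Lum those arrays were folic acid day 3 arrays 2 and 3 and UUO array 10 (adjusted p up to 0.0624), and for Runx1 folic acid day 3 arrays 1 and 3 and UUO arrays 10 and 12 (up to 0.0767). For Nav3 they were folic acid day 3 arrays 2 and 3 and UUO array 12 (up to 0.0605), and for Rai2 folic acid day 3 arrays 2 and 3 and UUO array 11 (up to 0.0859).

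**Figure D2:**
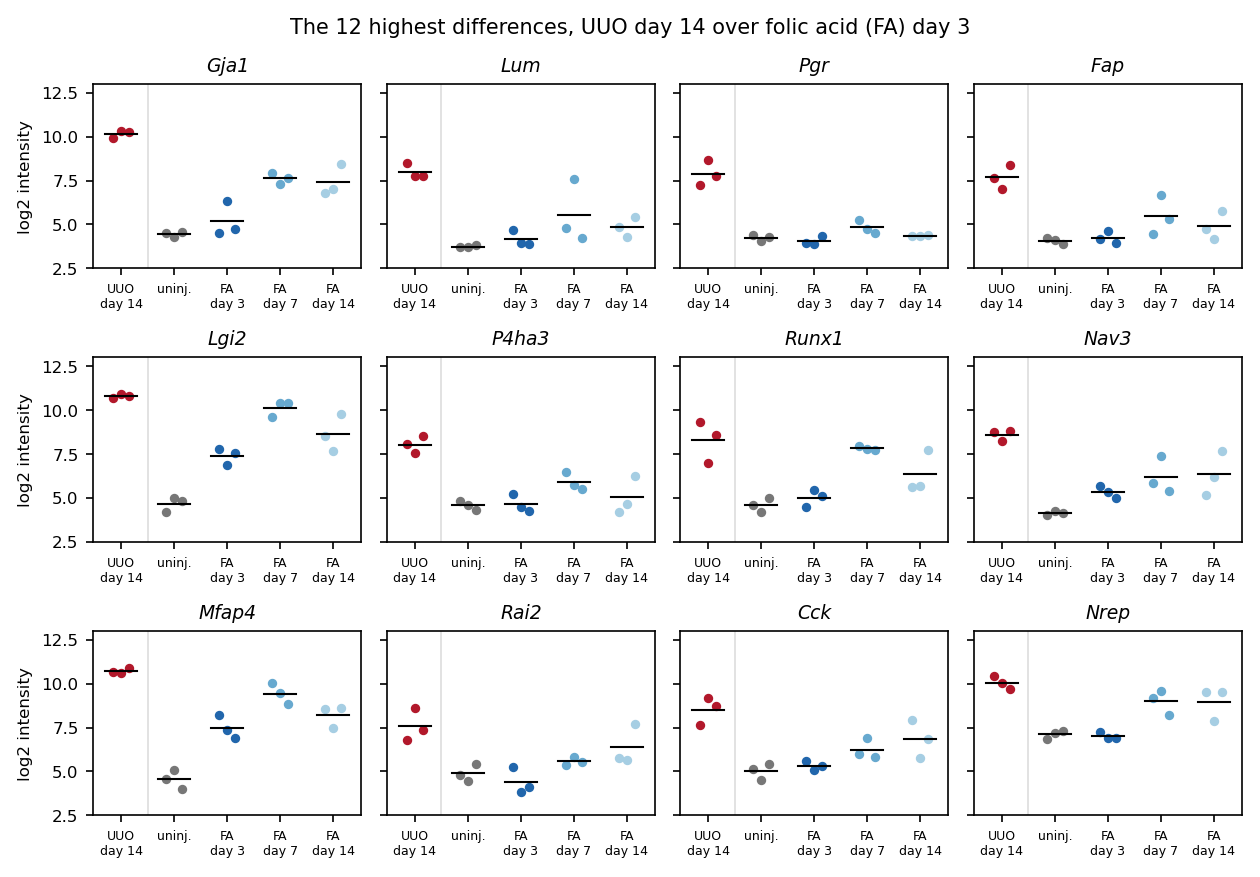
Each panel shows a gene's log2 intensity in every array (points) and the group mean (bar) for UUO day 14, uninjured kidney and folic acid (FA) days 3, 7 and 14, with 3 arrays per group. In each of the 12 panels the UUO points lie above all folic acid day 3 points, and the UUO mean is the highest of the 5 group means.

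At the other end, Lrrn1, a leucine-rich membrane protein of neurons, stood at 3.58, 3.25 and 4.60 in UUO, against 9.47, 8.39 and 7.97 at folic acid day 3, a 27.9-fold difference (log2 -4.80, SE 0.58, adjusted p = 0.00171). It was near the bottom of the intensity range in every UUO array, and it averaged 4.13 and 3.47 at folic acid days 7 and 14 and 3.33 in uninjured kidney. Aldh1a1, an enzyme that makes retinoic acid from retinaldehyde, stood at 3.02, 3.04 and 3.31 in UUO, against 7.84, 6.69 and 6.61 at folic acid day 3 (log2 -3.92, SE 0.29, adjusted p = 0.000107). It too was dim in all other groups, averaging 3.62 and 3.37 at folic acid days 7 and 14 and 3.46 in uninjured kidney. Hpgd, the dehydrogenase that inactivates prostaglandins, stood at 5.25, 5.95 and 6.46 in UUO, against 9.26, 8.58 and 8.80 at folic acid day 3 (log2 -2.99, SE 0.33, adjusted p = 0.000951). A second Hpgd probe set gave a log2 difference of -3.00. Fga, the fibrinogen alpha chain, stood at 5.43, 5.00 and 5.68 in UUO, against 7.68, 8.19 and 9.24 at folic acid day 3 (log2 -3.00, SE 0.37). The uninjured means of Hpgd and Fga, 5.06 and 5.66, lay close to the UUO values. Slco2b1, an organic anion transporter, stood at 6.95, 8.02 and 8.03 in UUO, against 10.86, 10.55 and 10.73 at folic acid day 3 (log2 -3.05, SE 0.57, adjusted p = 0.0199), with a mean of 4.54 in uninjured kidney.

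Another 7 of the 12 lowest genes were high in uninjured kidney as well as at folic acid day 3. Adamts1, a secreted protease that cleaves proteoglycans, stood at 6.29, 5.97 and 7.34 in UUO, against 9.84, 9.64 and 9.24 at folic acid day 3 (log2 -3.04, SE 0.44), with 9.12 in uninjured kidney. Hopx, a homeodomain protein that does not bind DNA, stood at 4.24, 4.32 and 4.64 in UUO, against 6.51, 8.08 and 8.54 at folic acid day 3 (log2 -3.31, SE 0.56), with 8.48 in uninjured kidney. A second Hopx probe set was dimmer and not called (-0.89, adjusted p = 0.387). The flavin monooxygenases Fmo2 and Fmo1, which oxidise drugs, differed by log2 -3.75 (SE 0.65) and -3.16 (SE 0.61). Fmo2 stood at 7.06, 6.43 and 5.28 in UUO, against 9.84, 10.02 and 10.16 at folic acid day 3. For Fmo1 the values were 5.70, 4.59 and 5.86 in UUO, against 8.46, 8.44 and 8.73 at folic acid day 3. None of these arrays overlapped between the groups, and the folic acid day 3 arrays were close together. Cyp4a10, a fatty acid hydroxylase of kidney and liver, stood at 5.97, 4.28 and 4.65 in UUO, against 9.12, 9.61 and 10.00 at folic acid day 3 (log2 -4.61, SE 0.93, adjusted p = 0.0309). Sult1d1, a sulfotransferase, stood at 4.76, 4.43 and 4.17 in UUO, against 8.18, 9.18 and 8.09 at folic acid day 3 (log2 -4.03, SE 0.88, adjusted p = 0.0494). Calb1, a calcium-binding protein of the distal nephron, stood at 4.62, 3.83 and 6.02 in UUO, against 7.19, 7.88 and 8.12 at folic acid day 3 (log2 -2.91, SE 0.61, adjusted p = 0.0404), with 9.27 in uninjured kidney. Its other 3 probe sets differed by only -0.34 to -0.03.

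Calls among the 12 lowest depended more often on single arrays. Those of Hopx ended without folic acid day 3 array 2 or 3 (adjusted p up to 0.0619), those of Fmo2 without folic acid day 3 array 2 or 3 or UUO array 12 (up to 0.0556), and those of Slco2b1 without any folic acid day 3 array or UUO array 10 (up to 0.0781). The call of Fmo1 ended without any folic acid day 3 array or UUO array 10 or 11 (up to 0.111), and that of Cyp4a10 without any folic acid day 3 array, UUO array 11 or 12, or uninjured array 13 or 14 (up to 0.124). The calls of Calb1 and Sult1d1 ended without any 1 of 9 and 11 of the 15 arrays (adjusted p up to 0.155 and 0.165), and that of Sult1d1 also ended with quantile normalization (0.0561).

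**Figure D3:**
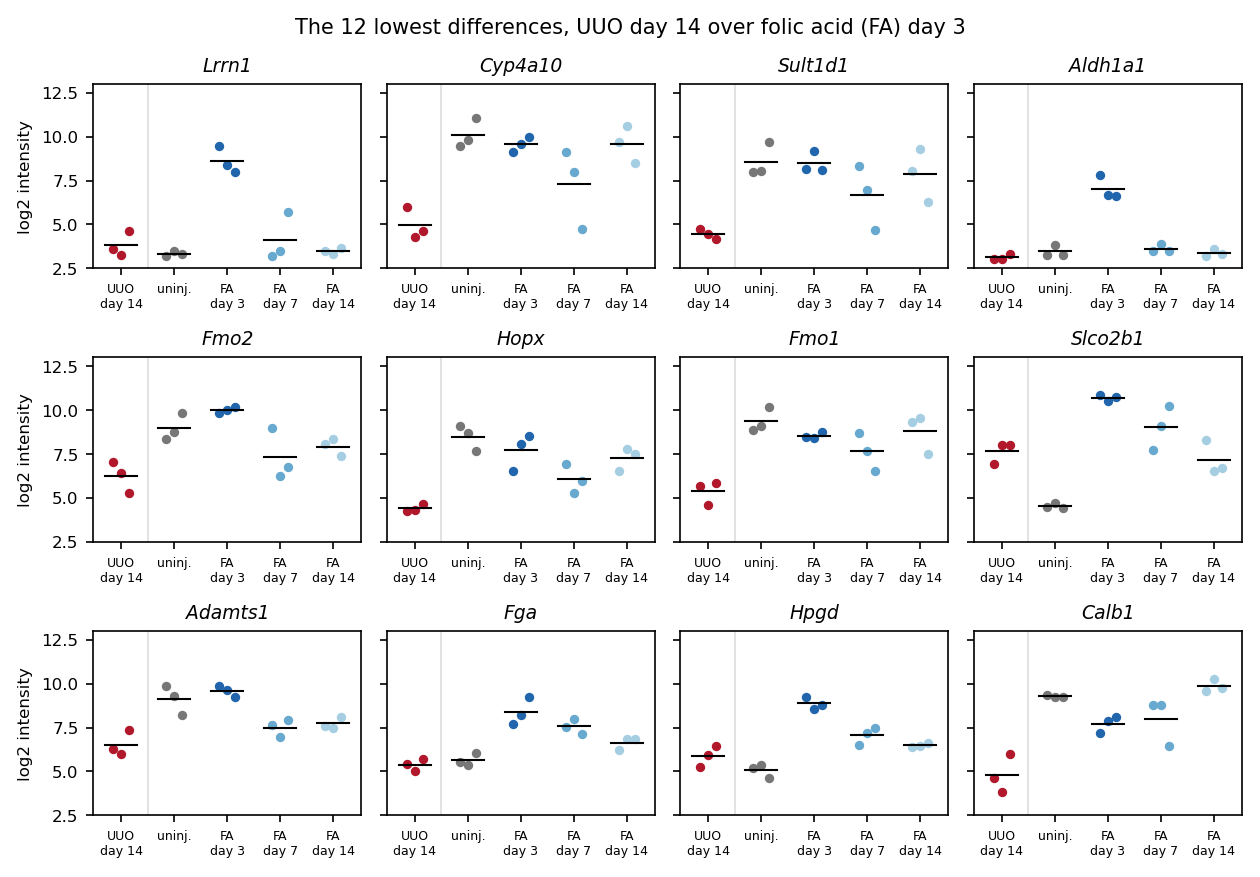
Each panel shows a gene's log2 intensity in every array (points) and the group mean (bar) for UUO day 14, uninjured kidney and folic acid (FA) days 3, 7 and 14, with 3 arrays per group. In 7 of the 12 panels the folic acid day 3 mean is the highest of the 5, and Lrrn1 and Aldh1a1 are bright in that group alone.

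Tubule transcripts moved with the lower genes. The mean of 14 proximal tubule markers ran from 5.44 to 5.93 in UUO and from 6.58 to 6.69 at folic acid day 3. These ranges did not overlap, as in many other lists, and the mean lay between 8.24 and 9.57 in uninjured kidney. Of these markers 13 were lower and 1 higher in UUO by sign (median -0.69), against 54% of all genes tested lower, and none was called. Slc27a2, a fatty acid transporter of the proximal tubule, came nearest (6.77, 5.15 and 4.95 in UUO, against 9.20, 9.69 and 9.62 at folic acid day 3, log2 -3.88, SE 0.90, adjusted p = 0.0664). The test pooled the spread of all 5 groups, also those outside this comparison. The SD of the marker mean was 1.33 and 1.24 at folic acid days 7 and 14 and 0.68 in uninjured kidney. In UUO it was 0.25 and at folic acid day 3 it was 0.05. Below the array medians lay 3 of the 14 markers in UUO and 2 at folic acid day 3, with Pck1 below in both, so most were above them in both groups. The 18 distal nephron markers averaged 5.61 to 5.83 in UUO and 5.92 to 6.26 at folic acid day 3. In such bulk samples fewer cells of a type and less RNA per cell cannot be told apart. When each array's proximal tubule mean was added as a covariate, 126 of the 153 genes were still called, among them all 12 of the highest and 11 of the 12 lowest. The exception was Calb1 (log2 -2.48, adjusted p = 0.0823), which also missed the threshold under a macrophage covariate (0.0527). The tubule mean varied little within UUO and folic acid day 3, so the covariate's slope rests mostly on the other arrays. The kept calls therefore cannot show that these genes are independent of tubule RNA, which was not tested.

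The genes usually read as the myofibroblast programme were at similar levels. Acta2, the smooth muscle actin of myofibroblasts, stood at 12.15, 11.94 and 11.97 in UUO, against 12.10, 12.18 and 11.97 at folic acid day 3. The ranges overlapped, and the difference was -0.06 with a 95% interval of -0.56 to 0.43. Col1a1, a chain of type I collagen, stood at 12.50, 12.10 and 12.08 in UUO, against 11.88, 12.09 and 12.18 at folic acid day 3, a difference of 0.18 (95% interval -0.31 to 0.66). Col3a1, the chain of type III collagen, differed by 0.21 (-0.70 to 1.12) and stood between 12.00 and 12.27 in all 6 arrays. The uninjured means of these genes were 8.29, 6.81 and 5.57, far below both injury groups. In uninjured kidney the resident fibroblast marker mean was also lower, at 6.00 to 6.77, and the proximal tubule mean higher, at 8.24 to 9.57. How much of the gap lies in the mix of cells was not tested. In the 6 arrays these genes lay near the highest value of any probe set, 12.83 to 13.01. Whether differences are compressed at that level was not tested. Of 19 contractile genes tested only Des, the intermediate filament protein desmin, was called, and it was lower in UUO. Des stood at 6.19, 6.41 and 6.25 in UUO, against 8.22, 7.75 and 8.25 at folic acid day 3 (log2 -1.79, adjusted p = 0.0196). That call ended without folic acid day 3 array 1 or 3 or any UUO array (up to 0.0811).

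Several widely used fibrosis genes did not pass the test. Fn1, fibronectin, stood at 11.22, 10.59 and 10.41 in UUO, against 9.91, 9.92 and 10.00 at folic acid day 3, a difference of 0.80 (SE 0.33, adjusted p = 0.341). Tnc, the matrix glycoprotein tenascin C, stood at 10.45, 10.33 and 10.24 in UUO, against 8.25, 8.76 and 9.08 at folic acid day 3 (1.65, SE 0.57, adjusted p = 0.232, and 0.0327 in a fit of the 6 arrays alone). The arrays of both genes were separate, as were those of Timp1, an inhibitor of matrix metalloproteinases (-0.73, adjusted p = 0.465), but separate arrays were found for 19.6% of all genes tested. Postn, periostin, varied widely within UUO, at 11.09, 8.79 and 7.74, against 9.33, 9.66 and 9.68 at folic acid day 3 (-0.35, SE 0.85). The monocyte chemokine gene Ccl2 was dim in both groups and differed by 0.26 (SE 0.61).

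Among the 50 gene lists examined, 29 held at least 1 called gene and 21 held none. The lists had 719 tested genes, of which 23 were called higher and 16 lower in UUO. Over all 13523 genes tested 71 (0.525%) were called higher and 82 (0.606%) lower, the background for the calls in each list below. The median difference over all genes tested was -0.03, against which the list medians below can be read. By sign, 7305 of the 13523 genes tested (54%) were lower in UUO and 6218 higher, which is the background for the counts by sign. Array means of many lists, the retinoid, cartilage and glycolysis lists among them, did not overlap between the groups. Separate list means therefore do not single out a list.

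**Figure D4:**
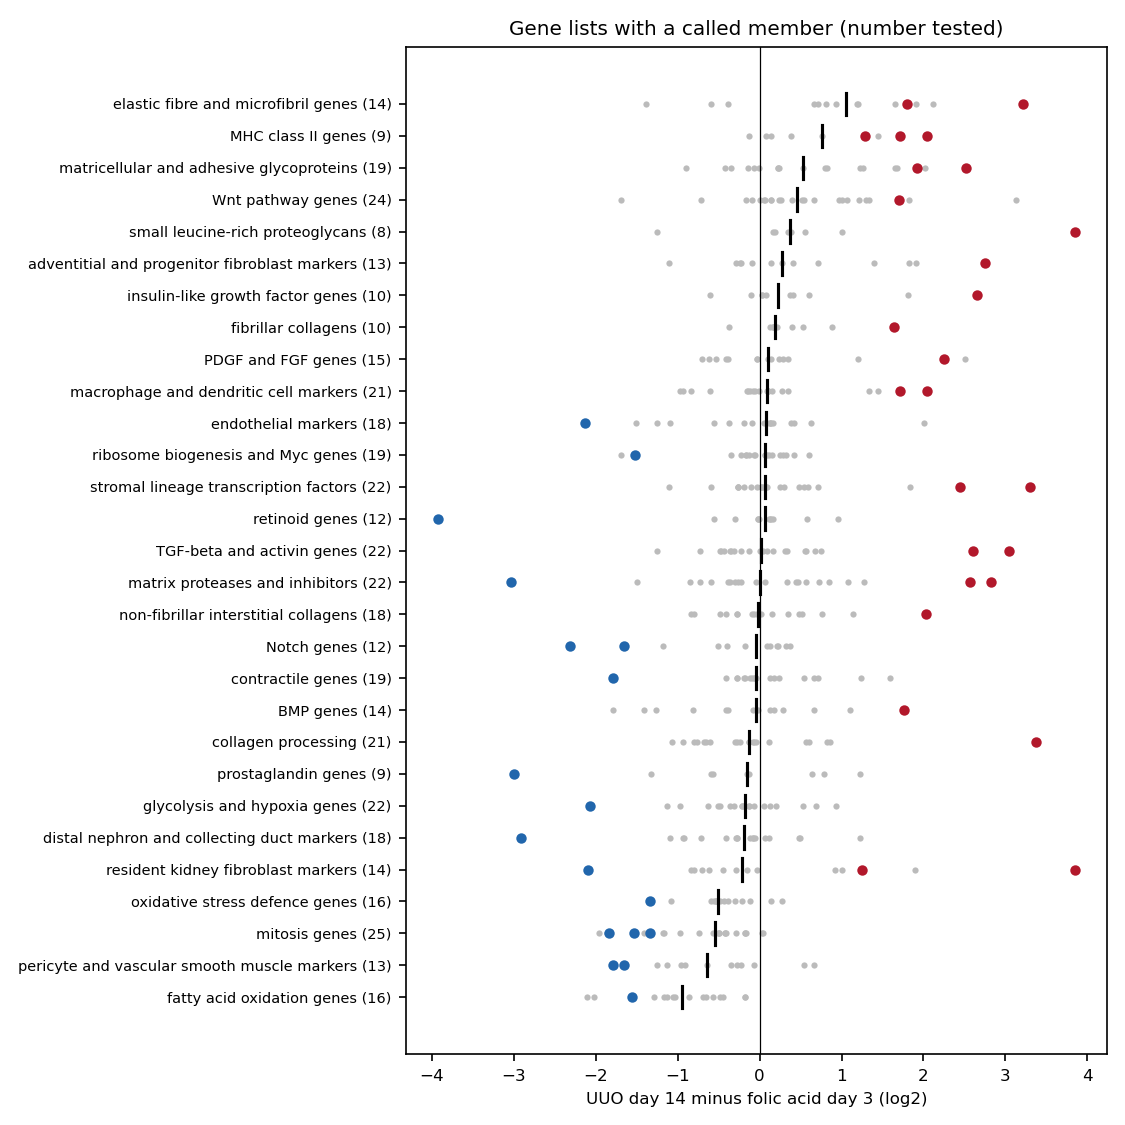
Each point is a tested gene of a list, placed by UUO day 14 minus folic acid day 3 (log2), with red and blue for genes called higher and lower in UUO, grey for genes not called and a black bar for the list's median. The 29 lists with a called gene are shown in the order of their medians, which run from -0.95 for fatty acid oxidation to 1.06 for elastic fibres.

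In the extracellular matrix, the elastic fibre list stood highest, with a median of 1.06 over 14 genes and 11 of them higher in UUO by sign. The called genes were Mfap4 and Ltbp2, a latent TGF-beta binding protein of microfibrils (log2 1.80, SE 0.34, adjusted p = 0.0236). Ltbp2 stood at 8.11, 8.54 and 8.76 in UUO, against 6.25, 6.45 and 7.30 at folic acid day 3. Efemp1, Mfap5 and Fbn2, a fibulin, a microfibril glycoprotein and a fibrillin, differed by 2.11, 1.90 and 1.65 without passing the test (adjusted p = 0.131, 0.147 and 0.078), and Fbln5, another fibulin, by -1.39 (0.228). The mean of the 14 genes ran from 8.38 to 8.53 in UUO and from 7.39 to 7.49 at folic acid day 3. Of 19 matricellular and adhesive glycoproteins (median 0.53) the thrombospondins Thbs2 and Thbs4 were called, at log2 2.52 (SE 0.38, adjusted p = 0.00713) and 1.92 (SE 0.31, adjusted p = 0.00902). Thbs2 stood at 10.45, 9.20 and 8.68 in UUO, against 6.90, 7.37 and 6.50 at folic acid day 3. Thbs4 was dim at folic acid day 3, at 4.79, 4.78 and 4.95, against 5.92, 7.53 and 6.84 in UUO.

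Few collagen genes passed the test. Of 10 fibrillar collagens 9 were higher in UUO by sign (median 0.19), and the only call was Col1a2, the partner chain of Col1a1 in type I collagen, whose 1 probe set was dim. It stood at 5.85, 5.31 and 5.85 in UUO, against 4.31, 3.60 and 4.19 at folic acid day 3 (log2 1.64, adjusted p = 0.0171). The mean of 18 other interstitial collagens ran from 7.42 to 7.52 in UUO and from 7.27 to 7.39 at folic acid day 3, without overlap, while their median difference was -0.02 and 8 of 18 were higher by sign. Of these Col8a2, a chain of the network-forming type VIII collagen, was called (7.34, 6.35 and 7.42 in UUO, against 5.25, 4.99 and 4.77 at folic acid day 3, log2 2.04, adjusted p = 0.00305). P4ha3 was the only call among 21 collagen processing genes (median -0.13), and Lum the only one among 8 small leucine-rich proteoglycans (0.37). Of 22 matrix proteases and inhibitors (median 0.01) the gelatinase Mmp2 and the stromelysin Mmp11 were higher in UUO and Adamts1 lower. Mmp2 stood at 9.52, 9.53 and 8.48 in UUO, against 6.63, 6.13 and 6.29 at folic acid day 3 (log2 2.82, SE 0.36, adjusted p = 0.00243). Mmp11 stood at 9.08, 8.00 and 7.46 in UUO, against 5.92, 4.99 and 5.94 at folic acid day 3 (log2 2.56, adjusted p = 0.0159). None of the 16 basement membrane or 9 hyaluronan genes was called. Single arrays ended 3 of these calls: Ltbp2 without folic acid day 3 array 1 or 2 or UUO array 11 or 12 (adjusted p up to 0.0987), Col1a2 without folic acid day 3 array 2 or UUO array 10 or 12 (0.0811), and Mmp11 without folic acid day 3 array 2 (0.0736).

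Ligands, receptors and modulators of growth factor signalling gave scattered calls, most of them higher in UUO. Inhba, the subunit of activin A, a ligand of the TGF-beta family, stood at 8.52, 8.44 and 8.59 in UUO, against 5.64, 5.66 and 6.42 at folic acid day 3 (log2 2.61, SE 0.32, adjusted p = 0.00193). It and Nrep were the calls among 22 TGF-beta and activin genes (median 0.02). Bmpr1b, a receptor for bone morphogenetic proteins, stood at 7.43, 7.15 and 6.76 in UUO, against 5.43, 5.43 and 5.19 at folic acid day 3 (log2 1.76, adjusted p = 0.00751), the only call of 14 BMP genes. A second Bmpr1b probe set was not called (0.89, adjusted p = 0.108). Igfbp2, which binds insulin-like growth factors, stood at 8.49, 8.09 and 7.65 in UUO, against 5.47, 5.45 and 5.35 at folic acid day 3 (log2 2.65, SE 0.31, adjusted p = 0.00158), the only call of 10 genes of that system. Pdgfrl, a secreted protein resembling the ligand-binding part of PDGF receptors, differed by log2 2.25 (SE 0.26, adjusted p = 0.00147), the only call of 15 PDGF and FGF genes. In these 4 genes every UUO array was higher than every folic acid day 3 array by more than a doubling. Of 24 Wnt pathway genes 20 were higher by sign (median 0.46), and the only call was Nkd2, an inhibitor within the pathway. Nkd2 stood at 8.42, 7.97 and 7.81 in UUO, against 6.25, 6.42 and 6.44 at folic acid day 3 (log2 1.69, SE 0.26, adjusted p = 0.00751), and its mean at folic acid day 7, 9.65, was higher still. The ligand Wnt4 (3.13, adjusted p = 0.0763) and the antagonist Sfrp1 (1.82, 0.114) did not pass. Among 22 stromal transcription factors Runx1 and Sox4 were called. Sox4, a factor of progenitor cells, stood at 9.74, 9.62 and 9.74 in UUO, against 7.48, 6.65 and 7.61 at folic acid day 3 (log2 2.45, SE 0.29, adjusted p = 0.00171).

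Notch signalling passes between touching cells: a ligand on a cell opens a receptor on its neighbour, whose freed inner part switches on genes of the Hes and Hey families. Of 12 Notch genes (median -0.04) the receptor Notch3 and the target Heyl were lower in UUO. Notch3 stood at 6.16, 6.29 and 6.35 in UUO, against 7.51, 8.14 and 8.12 at folic acid day 3 (log2 -1.66, SE 0.27, adjusted p = 0.00908). Heyl stood at 5.66, 6.16 and 6.03 in UUO, against 8.28, 8.17 and 8.33 at folic acid day 3 (log2 -2.31, SE 0.37, adjusted p = 0.00902). A second Notch3 probe set was not called (-2.10, adjusted p = 0.071). Of the further Heyl probe sets, 1 was called (-1.25, adjusted p = 0.0387) and 1 was not (-0.20, adjusted p = 0.708). Heyl's means in uninjured kidney, at folic acid day 7 and at day 14 were 6.10, 6.48 and 5.94, near the UUO values, and Notch3's were 6.77, 7.36 and 7.45. Notch3 is also a marker of pericytes, the contractile cells around small vessels. The mean of 13 pericyte and vascular smooth muscle markers ran from 6.24 to 6.30 in UUO and from 6.81 to 7.00 at folic acid day 3. Of these 11 were lower by sign (median -0.64), and Notch3 and Des were called. Below the array medians lay 2 of the 13 in each group, Higd1b in both. The part of this difference in the Notch values was not tested. The retinoid and prostaglandin lists, of 12 and 9 genes, held a single call each, Aldh1a1 and Hpgd, with list medians of 0.06 and -0.16.

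Genes of mitosis were lower in UUO as a group by sign, though few passed the test. Of 25 tested 23 were lower (median -0.55), and 3 were called. Birc5, survivin, a subunit of the complex that directs chromosome segregation, stood at 5.78, 5.46 and 5.76 in UUO, against 6.51, 7.79 and 7.30 at folic acid day 3 (log2 -1.53, SE 0.26, adjusted p = 0.013). Kif20a, a motor protein of cytokinesis, stood at 7.11, 6.31 and 6.46 in UUO, against 8.58, 8.11 and 8.72 at folic acid day 3 (log2 -1.84, SE 0.33, adjusted p = 0.0165). Ccnb2, a B-type cyclin that drives entry into mitosis, stood at 5.25, 4.91 and 4.54 in UUO, against 6.18, 6.97 and 5.59 at folic acid day 3 (log2 -1.34, SE 0.28, adjusted p = 0.0408). In all 3 genes the folic acid day 3 arrays were the higher ones without overlap. Mki67, the proliferation marker Ki-67, was high in 1 UUO array, at 8.43, 5.81 and 5.60, against 8.83, 9.02 and 7.85 at folic acid day 3, and was not called (-1.95, SE 0.75, adjusted p = 0.282). The mean of the 25 genes was 5.34 to 5.71 in UUO and 6.30 to 6.46 at folic acid day 3, with 5.23 to 5.32 in uninjured kidney. None of 25 DNA replication genes was called (median -0.04). The number of mitosis calls was 0 without UUO array 11, 1 without UUO array 12 or folic acid day 3 array 1, and 4 without folic acid day 3 array 2. The call of Ccnb2 ended without any 1 of 11 of the 15 arrays (adjusted p up to 0.122) and with the proximal tubule or macrophage covariate (0.0589 and 0.0526), that of Kif20a without folic acid day 3 array 1 or 3 or UUO array 11 or 12 (0.076), and that of Birc5 without folic acid day 3 array 3 or UUO array 11 (0.0567).

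Many mitosis genes share short promoter elements that help time their expression to cell division, the CHR element, which mediates repression outside that phase, and the CCAAT box, which binds the activator NF-Y, so the promoters of a mitosis gene that was called and carries them, of Mki67, and of a called gene without them are shown. Each window runs from 250 bases before to 50 bases after the annotated start, 5′ to 3′ on the gene's strand, from RefSeq (GRCm38.p6), with TTTGAA and CCAAT in capitals on either strand. Ccnb2 lies on the minus strand at chr9:70421505-70421804, Mki67 on the minus strand at chr7:135716330-135716629 and Birc5 on the plus strand at chr11:117848987-117849286.
Ccnb2: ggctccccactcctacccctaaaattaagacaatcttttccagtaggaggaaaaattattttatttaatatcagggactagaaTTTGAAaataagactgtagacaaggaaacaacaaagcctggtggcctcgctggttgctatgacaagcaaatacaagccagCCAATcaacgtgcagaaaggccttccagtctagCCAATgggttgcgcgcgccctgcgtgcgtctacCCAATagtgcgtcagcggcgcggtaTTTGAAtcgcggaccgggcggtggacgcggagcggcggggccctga
Mki67: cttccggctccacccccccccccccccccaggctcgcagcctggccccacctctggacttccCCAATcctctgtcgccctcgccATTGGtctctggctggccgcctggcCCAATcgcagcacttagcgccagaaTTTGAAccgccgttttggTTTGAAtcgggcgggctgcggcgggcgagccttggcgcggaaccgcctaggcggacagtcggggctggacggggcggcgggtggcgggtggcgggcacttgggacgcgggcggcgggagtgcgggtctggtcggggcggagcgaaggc
Birc5: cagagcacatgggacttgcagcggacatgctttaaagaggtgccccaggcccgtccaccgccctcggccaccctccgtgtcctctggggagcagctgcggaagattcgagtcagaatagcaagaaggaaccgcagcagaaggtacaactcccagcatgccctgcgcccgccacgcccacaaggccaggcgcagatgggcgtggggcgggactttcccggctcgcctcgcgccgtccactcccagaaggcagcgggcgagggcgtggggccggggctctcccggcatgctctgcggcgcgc

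The Ccnb2 window held 2 matches to TTTGAA and 3 to CCAAT, the Mki67 window 2 and 3, and the Birc5 window 0 of each. Of the 25 mitosis genes 21 had a window in the table, and 16 of them (76.2%) held TTTGAA, 17 (81.0%) CCAAT and 15 (71.4%) both. Over the 27025 genes with a window those shares were 20.2%, 41.1% and 7.97%, and over the 13605 measured genes with a window they were 15.6%, 42.3% and 6.17%. Both strands were searched, and neither motif contains the other. A match is a description of these letters only, and Birc5, without a match, was called as Ccnb2 was.

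All 16 fatty acid oxidation genes tested were lower in UUO by sign (median -0.95), and 1 was called. Cpt1a, the enzyme that admits long-chain fatty acids to mitochondria, stood at 7.56, 8.45 and 7.25 in UUO, against 9.27, 9.36 and 9.31 at folic acid day 3 (log2 -1.56, SE 0.30, adjusted p = 0.0241). Acaa2 and Ehhadh, enzymes of the same pathway in mitochondria and peroxisomes, differed by -2.11 and -2.02 and did not pass (adjusted p = 0.126 and 0.271). The list's mean ran from 6.80 to 7.17 in UUO and from 7.84 to 8.07 at folic acid day 3. Once the proximal tubule mean was a covariate, the list's median was -0.51 and no member was called, Cpt1a at -1.52 (adjusted p = 0.0538). Its call also ended without any folic acid day 3 array or UUO array 10 or 12 (up to 0.0885). Of 16 oxidative stress genes (median -0.51) only Mt1, a metallothionein that binds zinc and copper, was called (10.64, 11.10 and 11.35 in UUO, against 12.40, 12.31 and 12.38 at folic acid day 3, log2 -1.34, adjusted p = 0.0162). A second Mt1 probe set was not called (-0.68, adjusted p = 0.38). Ddit4, an inhibitor of mTOR signalling induced by low oxygen, was the only call of 22 glycolysis and hypoxia genes (median -0.18). It stood at 7.96, 7.23 and 7.77 in UUO, against 9.60, 9.64 and 9.90 at folic acid day 3 (log2 -2.06, SE 0.34, adjusted p = 0.00919). Myc, a growth-promoting transcription factor, stood at 6.07, 5.83 and 6.21 in UUO, against 7.38, 7.84 and 7.46 at folic acid day 3 (log2 -1.52, SE 0.27, adjusted p = 0.0168), while the other 18 genes of its list, mostly of ribosome biogenesis, were not called. The call of Mt1 ended without any folic acid day 3 array or UUO array 10 (up to 0.0636), and that of Myc without folic acid day 3 array 2 or 3 or UUO array 11 (up to 0.0806).

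Genes of MHC class II present antigen to helper T cells. Of 9 tested 8 were higher in UUO by sign (median 0.76), and 3 were called. H2-Aa stood at 8.99, 9.09 and 9.64 in UUO, against 7.11, 7.29 and 7.18 at folic acid day 3 (log2 2.05, SE 0.17, adjusted p = 0.000167). Another H2-Aa probe set was called (2.80, adjusted p = 0.00382) and a further one was not (1.03, adjusted p = 0.213). H2-Eb1 differed by log2 1.29 (SE 0.20, adjusted p = 0.00902) and Cd74, the invariant chain, by 1.71 (SE 0.30, adjusted p = 0.0162), a call that ended without folic acid day 3 array 1 or 2 or UUO array 10 or 11 (up to 0.0729). The UUO level was not the top of the series: H2-Aa averaged 10.75 and 11.02 at folic acid days 7 and 14, and 6.61 in uninjured kidney. The mean of 21 macrophage and dendritic cell markers ran from 5.87 to 6.13 in UUO and from 5.59 to 5.96 at folic acid day 3, with 7.19 to 8.43 over the day 7 and 14 arrays. Of these markers the 2 called, Cd74 and H2-Aa, are themselves class II genes, and the median was 0.09. Below the array medians lay 3 of the 21 markers in UUO and 5 at folic acid day 3, with Adgre1, Ccr2 and Aif1 below in both. The common leukocyte gene Ptprc stood at 4.74, 4.81 and 6.82 in UUO, against 3.85, 4.24 and 4.28 at folic acid day 3, and was not called. These 3 class II genes were also called with a macrophage covariate. That covariate is the mean of the 21 markers, Cd74 and H2-Aa among them, so the source of the class II RNA was not tested.

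Markers of fibroblast subsets gave calls in both directions. Thy1, a surface glycoprotein of perivascular and adventitial fibroblasts, stood at 9.99, 10.04 and 10.02 in UUO, against 7.40, 6.47 and 7.92 at folic acid day 3 (log2 2.75, SE 0.45, adjusted p = 0.00935), the only call of 13 adventitial and progenitor markers (median 0.27). Of 14 resident kidney fibroblast markers (median -0.22) Lum and the homeobox gene Meis1 were higher and Nt5e lower. Meis1 stood at 7.73, 7.70 and 7.84 in UUO, against 6.27, 6.30 and 6.93 at folic acid day 3 (log2 1.25, SE 0.22, adjusted p = 0.0134). A second Meis1 probe set was not called (0.83, adjusted p = 0.255). Nt5e, the ecto-5′-nucleotidase CD73 of cortical fibroblasts, stood at 6.54, 5.45 and 6.42 in UUO, against 8.24, 7.84 and 8.61 at folic acid day 3 (log2 -2.09, SE 0.39, adjusted p = 0.019). Nt5e was highest in uninjured kidney, at a mean of 8.89, whereas the mean of the resident fibroblast markers was lowest there, at 6.00 to 6.77. The source of that Nt5e RNA was not tested. Another tested Nt5e probe set was not called (-1.85, adjusted p = 0.0625). Meis1 lost its call without folic acid day 3 array 1 or 2 or UUO array 12 (up to 0.0652), and Nt5e without folic acid day 3 array 1 or 3 or UUO array 11 (up to 0.0841). Ehd3, a membrane-trafficking gene used as a marker of glomerular endothelium, was the only call of 18 endothelial markers, at 7.72, 7.90 and 7.71 in UUO, against 9.94, 10.12 and 9.65 at folic acid day 3 (log2 -2.13, SE 0.33, adjusted p = 0.00762). The mean of that list was 6.09 to 6.20 in UUO and 6.26 to 6.38 at folic acid day 3. Its median difference was 0.08, however, and 10 of the 18 markers were higher in UUO by sign. Below the array medians lay 3 of the 18 markers in each group, Kdr and Vwf in both.

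**Figure D5:**
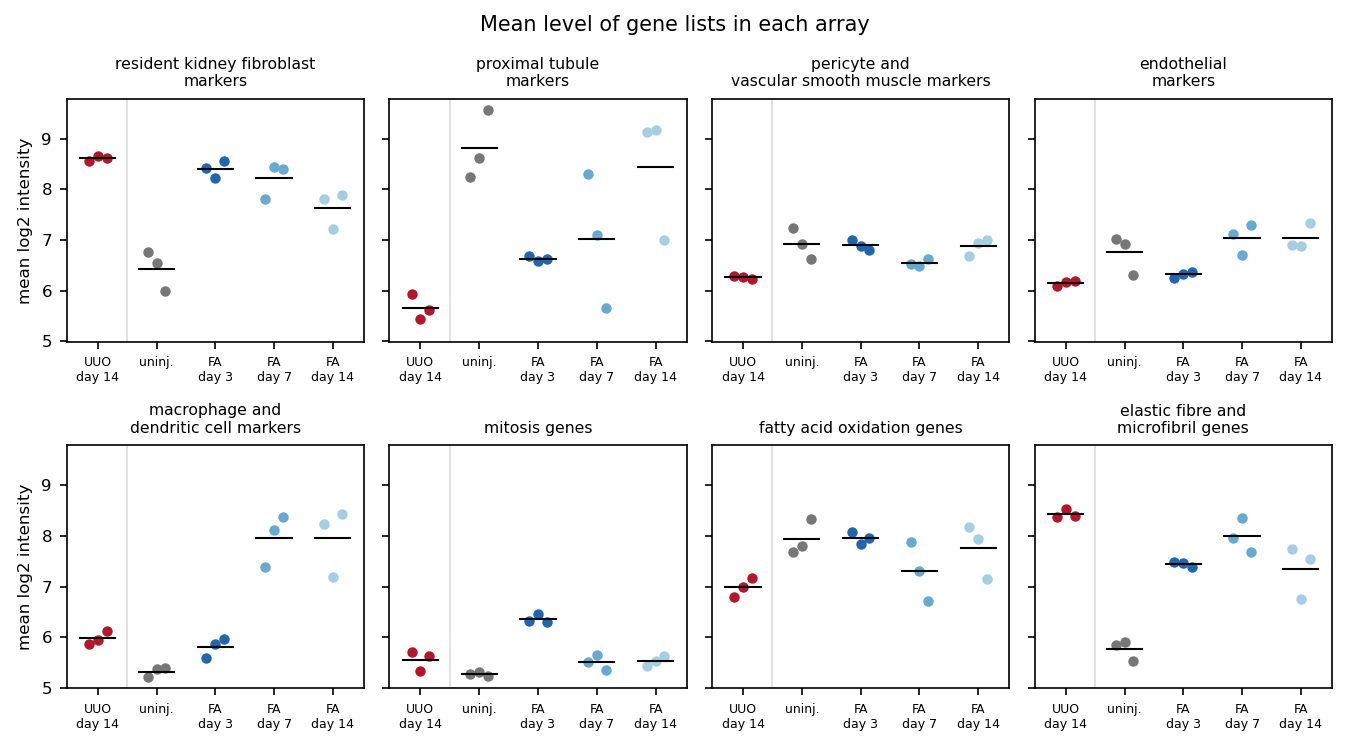
Points give the mean log2 intensity of a gene list's tested members in each array and bars the group means, for UUO day 14, uninjured kidney and folic acid (FA) days 3, 7 and 14 (3 arrays each). Proximal tubule, pericyte, mitosis and fatty acid oxidation means are lower in UUO than at folic acid day 3, and the elastic fibre mean is higher. The means of many lists not shown are also separate between these 2 groups. Tubule and macrophage means spread widely in the day 7 and day 14 folic acid groups.

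The other lists without a call covered hedgehog, cartilage and bone, p53 target, unfolded protein response, lipid storage, immediate early, chemokine, IL-6 family, complement and interferon genes. No marker of injured epithelium, urothelium, podocytes, lymphocytes, neutrophils, erythroid cells or Schwann cells was called either. Among the immediate early and dissociation stress genes the median was 0.22 over 20 genes, and among 20 interferon response genes it was 0.10. The test cannot show that these genes were equal: in simulated data for this comparison it recovered 39% of genes changed by log2 1 and 80% of those changed by log2 2.

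The means of the other 3 groups place these differences. Comparisons with those groups share arrays with this one, so the counts describe levels and test nothing. The uninjured arrays also had lower fibroblast and higher tubule marker means than UUO and folic acid day 3. The part of this in differences from uninjured kidney was not tested. Of the 71 genes higher in UUO, 60 had their highest group mean in UUO. The uninjured mean lay below the folic acid day 3 mean for 40 of them and between the 2 groups but nearer folic acid day 3 for 24. Of the 82 genes lower in UUO, 65 had their highest group mean at folic acid day 3. For 31 of these 82 the uninjured mean lay below UUO, for 26 between the groups but nearer UUO, for 10 nearer folic acid day 3, and for 15 above folic acid day 3. Gja1 differed from uninjured kidney by log2 5.71 in UUO (adjusted p = 1.27e-05) and by 0.74 at folic acid day 3 (adjusted p = 0.304). For Pgr the same 2 values were 3.63 (adjusted p = 1.52e-05) and -0.19 (adjusted p = 0.710). Hpgd differed from uninjured kidney by 0.82 in UUO (adjusted p = 0.110) and by 3.82 at folic acid day 3 (adjusted p = 1.73e-05), and Mt1 by 2.11 (adjusted p = 0.00012) and 3.45 (adjusted p = 4.42e-06). Against folic acid at the same day 14, UUO was higher for Pgr by 3.53 (adjusted p = 0.000323) and for Gja1 by 2.76 (adjusted p = 0.00984), and it differed by -0.61 for Hpgd (adjusted p = 0.379) and by 0.25 for Mt1 (adjusted p = 0.693).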

How the data were processed

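RNA of sorted PDGFRa-positive cells was amplified and measured on 15 one-colour arrays. The authors deposited log2 intensities of 45141 probe sets made with RMA per the submitters' processing notes; affy and limma are listed there too, with no version. The 15 columns were used as deposited; the values ran from 2.43 to 13.1, and no arrays were identical. No detection call was used here, so differences of dim genes may be understated.

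Of the probe sets 28898 named 1 gene, 551 several and 15692 none in the platform annotation used here. For each of 17097 genes the probe set with the highest mean over 15 arrays was taken, and only genes exceeding the array's 40th percentile on 3 or more arrays were tested (13523 genes). Group means of all 5 groups were fitted with limma 3.58.1 (lmFit, eBayes, 10 residual degrees of freedom) in R 4.3.3, 2-sided, with Benjamini-Hochberg adjustment over all genes tested and calls at 0.05. On simulated data the fit was tested with 100 genes changed by each of log2 1 and log2 2 and made 10 false calls. The number of arrays limits the precision.

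The comparison, the lists and the genes were chosen with earlier results of these data known. Genes named were the 12 highest and 12 lowest called differences with separate arrays, without provisional symbols, 10 fixed genes (Acta2, Ccl2, Col1a1, Col3a1, Fn1, Mki67, Pdgfra, Postn, Timp1, Tnc) and up to 4 called members per list described, or up to 2 where none was called; further names beside a list or a marker, and all in the closing section, were picked after their values were seen. Alternatives covered normalization, probe set choice, filter, weights, threshold, covariates and leaving out each array. Figures were drawn with matplotlib 3.10.9.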

Additional observations from a re-analysis of the deposited data

How the results depend on the processing

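The 153 calls became 243 with array weights (111 higher and 132 lower in UUO), 61 with the second-brightest probe set of each gene (19 and 42) and 64 at an adjusted p under 0.01 (39 and 25). Of the 64 called genes with a second tested probe set, 26 were still called, and 1, Herc3, turned direction (log2 0.16, adjusted p = 0.813, against -0.81 with the brightest). Leaving out 1 array gave 94 to 193 calls, 48 to 85 higher and 44 to 110 lower. The fewest calls came without folic acid day 3 array 2 (94), and the lower calls were 44, 46 and 51 without folic acid day 3 arrays 1 and 2 and UUO array 11. Quantile normalization gave 152 calls (82 and 70), median centring 158, trend and robust settings 147, no filter 146, a filter at the 60th percentile 159, the mean of a gene's probe sets 209, the 6 arrays alone 183, and the proximal tubule or macrophage mean as a covariate 189 or 177. The 6 arrays alone called 91 of the 153 genes again. Apart from Herc3, none of the 153 genes turned direction in these settings. The medians of the contractile, BMP and Schwann cell lists changed sign with quantile normalization, and that of the matrix proteases with median centring. More list medians did so with the proximal tubule covariate. Among them were TGF-beta and activin (0.02 to -0.30), chemokine (0.20 to -0.10), endothelial (0.08 to -0.22) and distal nephron genes (-0.19 to 0.15). Some medians also changed sign with the macrophage covariate or when 1 array was left out. No paired analysis was possible because the samples carry running numbers that no 2 groups share.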

Other observations

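The genes below were picked after their values were seen, and no theme among them was tested. Several genes that glucocorticoids are known to induce were lower in UUO. Zbtb16, a zinc finger repressor, stood at 4.97, 4.88 and 5.02 in UUO, against 6.55, 6.27 and 6.46 at folic acid day 3 (log2 -1.47, SE 0.14, adjusted p = 0.000293). Fkbp5, a co-chaperone of the glucocorticoid receptor, stood at 6.86, 6.83 and 6.35 in UUO, against 8.74, 8.67 and 8.66 at folic acid day 3 (log2 -2.01, adjusted p = 0.0113). Tsc22d3, also called GILZ, stood at 7.88, 7.41 and 8.10 in UUO, against 9.71, 9.67 and 9.63 at folic acid day 3 (log2 -1.88, adjusted p = 0.0114). The folic acid day 3 arrays of these 3 genes lay within a narrow range of one another and above every UUO array. Further Tsc22d3 probe sets were not called (-0.25 and -0.84, adjusted p = 0.467 and 0.106). Of the further Fkbp5 probe sets, 1 was called (-1.20, adjusted p = 0.0213) and 1 was not (-0.28, adjusted p = 0.566). The further Zbtb16 probe set was called (-3.78, adjusted p = 3.7e-05). Sgk1, a kinase regulated by serum and steroids, differed by -1.49 (adjusted p = 0.0345). Zbtb16, Fkbp5 and Tsc22d3 had uninjured means of 4.93, 6.54 and 6.90, but Sgk1 was at 9.97 in uninjured kidney, above both groups. The call of Tsc22d3 ended without UUO array 11 (0.0508), and that of Sgk1 without any 1 of 9 arrays (up to 0.13).

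Surface and secreted genes outside the lists differed as well. Agtr1a, the angiotensin II receptor, stood at 6.73, 6.51 and 6.72 in UUO, against 9.04, 8.76 and 8.87 at folic acid day 3 (log2 -2.24, SE 0.25, adjusted p = 0.000951), with a mean of 9.39 in uninjured kidney. Vegfd, a growth factor of lymphatic vessels, stood at 6.47, 6.62 and 7.49 in UUO, against 9.72, 9.13 and 9.13 at folic acid day 3 (log2 -2.47, SE 0.28, adjusted p = 0.00103). Oxtr, the oxytocin receptor, stood at 6.57, 6.73 and 7.97 in UUO, against 4.69, 4.98 and 4.68 at folic acid day 3 (log2 2.31, adjusted p = 0.00171). Its means in the other 3 groups lay between 4.63 and 4.66, so it was bright in UUO arrays alone. Adam22, a membrane protein that binds proteins of the Lgi family, was lower in UUO (log2 -2.51, adjusted p = 0.00902), whereas Lgi2 was higher. A second Adam22 probe set was not called (-0.38, adjusted p = 0.461). Cyp4a12a, a fatty acid hydroxylase, stood at 3.73, 3.61 and 3.69 in UUO, against 6.11, 6.91 and 6.62 at folic acid day 3 (log2 -2.87, SE 0.25, adjusted p = 0.00023), and whether its probes also read related Cyp4a genes was not tested.

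Of the heat shock genes, Hsph1 was higher in UUO (log2 1.75, adjusted p = 0.00908) and the small heat shock protein gene Hspb1 lower (-2.63, adjusted p = 0.0451), a call that ended without any 1 of 12 of the 15 arrays (up to 0.142). Hspa4 was called at log2 2.30, but its other 2 probe sets differed by 0.06 and 0.42 and were not called. Among probe sets that name no gene or several, 8992 were tested, 36 were called higher and 38 lower in UUO (0.823%). Of 100 further tested probe sets of called genes, 97 differed in the same direction as the one used, 36 were called in it and 0 in the other.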
